A study of Homo sapiens with 4 samples.

Results

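The genes described here are 34 genes of the ATF4 and unfolded protein response, taken by name from a list of pathway genes. All 34 were measured, out of 18417 genes in the series. They were placed in 4 groups by role, with 5 stress sensors and their transcription factors, 16 targets of ATF4, 10 chaperones and folding factors of the endoplasmic reticulum (ER), and 3 genes of ER-associated degradation (ERAD). RNA was compared between MV4-11R and MV4-11, with 2 arrays of each line. MV4-11R is the resistant line, obtained from MV4-11 by 3 months of growth in increasing amounts of PKC412, also called midostaurin, which blocks FLT3 among other kinases, and labelled low in EZH2. MV4-11 is the sensitive parent, a human acute myeloid leukaemia cell line labelled high in EZH2, and it carries an MLL fusion and an internal tandem duplication of FLT3. MV4-11R is 1 derived line, and the labels do not say whether the drug was present when RNA was taken.

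ATF4 is a transcription factor whose protein is made when the initiation factor eIF2 is phosphorylated, by PERK (EIF2AK3) under ER stress or by other kinases under amino acid shortage, haem deficiency or viral RNA. Its targets import and make amino acids, charge transfer RNAs, and include the further factors DDIT3 (CHOP) and ATF3. The unfolded protein response also runs through IRE1 (ERN1), which splices the mRNA of XBP1, and through ATF6, which is cleaved to an active factor, and these branches raise chaperone and ERAD genes. ATF4 is controlled largely in translation and XBP1 by splicing, so an mRNA level does not measure the activity of either.

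The DNA sites that these factors are known to use differ between the groups, and were searched on both strands in a window from 250 bases before to 50 bases after each gene's start (RefSeq, GRCh38.p14, with windows for 33 of the 34 genes and 14237 measured genes in all). The ER stress element reads CCAAT, then 9 bases of any kind, then CCACG. It was found in 4 members (XBP1, CALR, CANX and CRELD2), against 0.119% of all windows. The composite site of C/EBP and ATF factors, TGATGNAA, was found in 6 members (ATF3, CHAC1, ASNS, SLC3A2, SLC7A1 and HERPUD1), 5 of them among the 15 ATF4 targets with a window, against 2.54% of all windows. The XBP1 site TGACGTGG was found in HYOU1, against 0.906% of all windows. The first 2 stretches below are those of the members that passed the test and hold a site. The others, chosen after their values were seen, show the same elements beside genes that did not pass. Capitals mark the site, with 12 bases of flank on each side.
XBP1, chr22:28800591-28800633, minus strand, ER stress element: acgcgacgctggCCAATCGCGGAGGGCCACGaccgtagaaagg
CHAC1, chr15:40953250-40953281, plus strand, composite site read on the opposite strand: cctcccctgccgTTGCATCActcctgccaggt
ASNS, chr7:97872457-97872488, minus strand, composite site: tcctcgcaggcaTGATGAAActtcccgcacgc
CANX, chr5:179698766-179698808, plus strand, ER stress element: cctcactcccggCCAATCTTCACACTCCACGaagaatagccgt
CRELD2, chr22:49918542-49918584, plus strand, ER stress element read on the opposite strand: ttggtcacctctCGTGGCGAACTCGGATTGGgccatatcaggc
HYOU1, chr11:119057374-119057405, minus strand, XBP1 site: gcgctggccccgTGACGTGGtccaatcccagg
These are matches of letters in a window. NUPR1 had no window. The remaining members for which no site is named above have no such match in their window, which says nothing about sites elsewhere.

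Values are log2 signals, on which 1 unit is a doubling, and differences are MV4-11R minus MV4-11. Array medians over all probe sets ran from 6.747 to 6.779. Over all genes, which do not count as replicates, the arrays correlated at r = 0.968 to 0.974 between the lines, and at 0.993 within MV4-11R and 0.994 within MV4-11. The 7 measured myeloid markers averaged 10.38 to 10.40 in MV4-11R and 10.63 to 10.72 in MV4-11, and FLT3 (1.90-fold), PTPRC (1.75-fold) and LYZ (1.61-fold) among them fell. Lists of B-cell, T and NK cell, erythroid and megakaryocytic, and epithelial and fibroblast markers averaged 4.98 to 6.74 in MV4-11R and 5.39 to 6.71 in MV4-11. Of their genes PAX5 rose (1.74-fold), and NCAM1 (4.17-fold), CD79B (2.13-fold), ITGA2B (1.59-fold) and KRT18 (1.49-fold) fell. The part of these markers in the results was not tested. As a guide to background, 95% of 341 olfactory receptor genes averaged below 6.26, as did NCAM1 in MV4-11R, and all 34 members averaged above it. The labels do not tell whether replicates were grown apart, so p-values here reflect the spread among 4 arrays, which can be purely technical.

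In MV4-11R, 7 of the 16 ATF4 targets rose, and 0 of the 13 chaperone and ERAD genes did. Of the 34 members, 8 rose and 2 fell in limma's moderated test (adjusted p under 0.05 over all genes), and 24 did not pass. That is 29.4% of the members called, against 15.1% of all genes tested. The members were chosen with earlier results of these data known, so the shares are set side by side without a test. In each direction the background was 7.92% of all genes higher and 7.13% lower. Among the ATF4 targets 0 fell and 9 did not pass, and their median difference was 0.75. At an unadjusted p under 0.05 the same test gave 11 higher and 0 lower, against 2872 higher and 2398 lower of all 18417 genes. Among the chaperone and ERAD genes 2 fell and 11 did not pass (limma, with 0 higher and 3 lower at an unadjusted p under 0.05). Their median difference was -0.06. The median over all genes was 0.01. With all probe sets tested rather than 1 a gene, XBP1 (adjusted p = 0.0911), CEBPG (0.0876), NUPR1 (0.0975) and EDEM1 (0.0619) missed the threshold. The arrays of the lines did not overlap for 20 of the 34 members, 12 of them ATF4 targets, against 55.6% of all genes. In bulk RNA, a higher level in every cell and a high level in part of the cells cannot be told apart.

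**Figure D1:**
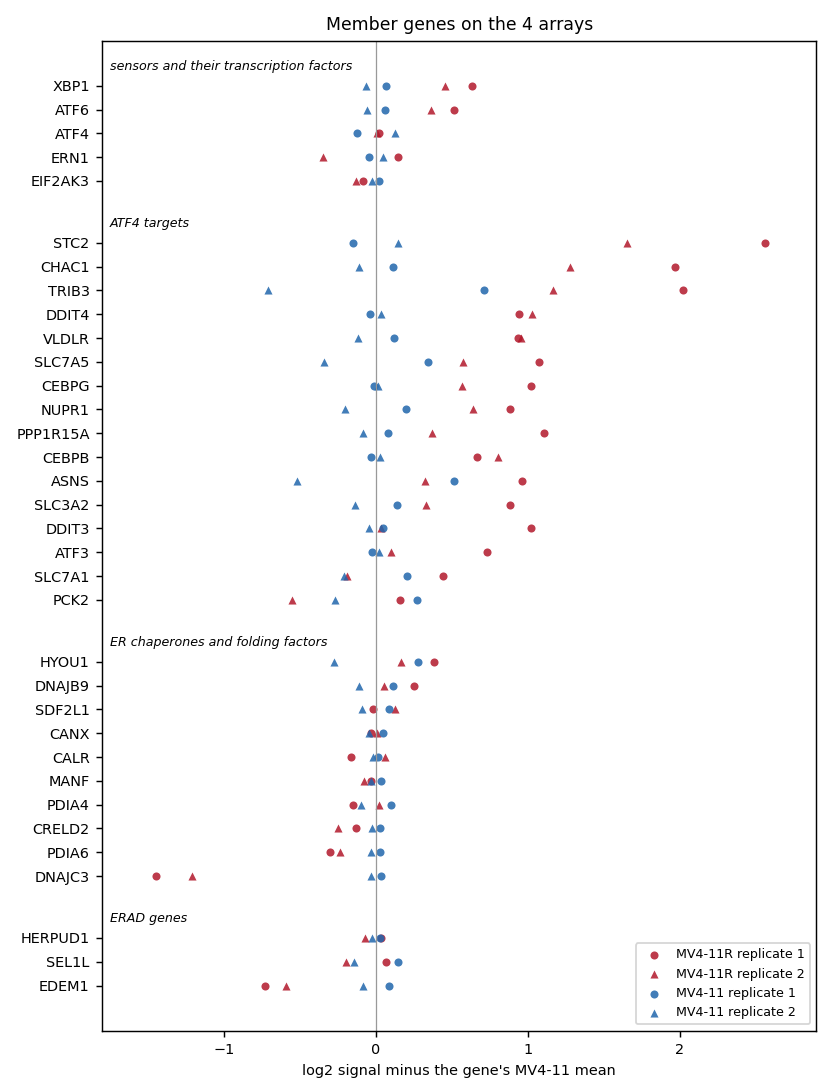
Log2 signal of each member on the 4 arrays, as the distance from the gene's mean in MV4-11 (vertical line at 0). Red marks MV4-11R and blue MV4-11, and circles and triangles mark replicates 1 and 2. The ATF4 targets spread to the right in red, from STC2 at the top of their group to PCK2 at the bottom, and the chaperone and ERAD genes sit near 0 except DNAJC3 and EDEM1.

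Among the sensors and their transcription factors, XBP1 alone passed. XBP1, the factor activated by IRE1, read 12.19 and 12.004 in MV4-11R, against 11.62 and 11.49 in MV4-11. Both resistant arrays lay above both parental ones, and XBP1 rose 1.46-fold (log2 difference 0.54, SE 0.12, adjusted p = 0.0353). The call was lost without MV4-11R replicate 1 (adjusted p = 0.128), MV4-11 replicate 1 (0.0795) or MV4-11 replicate 2 (0.141). The array gives 1 level for XBP1, so spliced and unspliced mRNA were not measured apart.

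ATF6, the cleaved membrane-bound factor, read 11.24 and 11.09 in MV4-11R, against 10.79 and 10.67 in MV4-11. Its arrays did not overlap either, with a difference of 0.44 (SE 0.12) that missed the threshold at adjusted p = 0.0580. ERN1, the gene of the sensor IRE1, read 9.68 and 9.19 in MV4-11R, against 9.48 and 9.58 in MV4-11. The resistant arrays lay on either side of the parental ones (difference -0.10, SE 0.18, adjusted p = 0.799). EIF2AK3, the gene of the sensor PERK, read 8.13 and 8.09 in MV4-11R, against 8.24 and 8.20 in MV4-11. That small gap (difference -0.11, SE 0.11, adjusted p = 0.594) did not pass.

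ATF4 mRNA was high in both lines, with 11.83 and 11.81 in MV4-11R and 11.68 and 11.93 in MV4-11. The parental arrays lay on either side of the resistant ones, and the difference was 0.01 (SE 0.13, 95% interval -0.30 to 0.32, adjusted p = 0.972). A second, slightly dimmer ATF4 probe set read 11.90 and 11.77 in MV4-11R, against 11.70 and 11.58 in MV4-11. It did not overlap between the lines, but its difference of 0.20 (SE 0.12) did not pass either (limma adjusted p = 0.458 over all probe sets).

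STC2, a secreted glycoprotein hormone, showed the widest difference of the 34 genes. It read 7.905 and 6.9995 in MV4-11R, against 5.197 and 5.490 in MV4-11. The rise was 4.31-fold (log2 difference 2.11, SE 0.29, adjusted p = 0.00864). Both parental arrays were under the background guide of 6.26, so the fold is not exact.

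CHAC1, an enzyme that breaks down glutathione, read 10.51 and 9.82 in MV4-11R, against 8.65 and 8.43 in MV4-11. It rose 3.08-fold (1.62, SE 0.23, adjusted p = 0.00962), with the arrays of the lines more than 1 log2 unit apart. Its promoter stretch with the composite site is printed above.

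DDIT4, an inhibitor of the growth kinase complex mTORC1, read 9.43 and 9.51 in MV4-11R, against 8.45 and 8.52 in MV4-11. It rose 1.98-fold (0.98, SE 0.11, adjusted p = 0.00439), with replicates of each line close together. VLDLR, a lipoprotein receptor, read 10.004 and 10.02 in MV4-11R, against 9.19 and 8.95 in MV4-11. It rose 1.93-fold (0.95, SE 0.12, adjusted p = 0.00754). STC2, CHAC1, DDIT4 and VLDLR kept their calls under each of the 12 alternatives run, including each array left out.

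CEBPB and CEBPG rose too, beside a shift of their chromosomal neighbours. CEBPB, a C/EBP factor of myeloid differentiation and stress, read 10.85 and 10.99 in MV4-11R, against 10.16 and 10.22 in MV4-11. It rose 1.66-fold (0.73, SE 0.11, adjusted p = 0.0116), while the median difference of its 30 nearest neighbours above the median level, on chromosome 20, was 0.32. CEBPG, which can pair with ATF4, read 10.48 and 10.02 in MV4-11R, against 9.44 and 9.47 in MV4-11. It rose 1.73-fold (0.79, SE 0.17, adjusted p = 0.0295), while its 30 neighbours on chromosome 19 had a median of 0.45. With the neighbours' shift subtracted neither passed, at 0.42 for CEBPB (adjusted p = 0.0885) and 0.35 for CEBPG (0.213). The CEBPG call was also lost without MV4-11R replicate 1 (adjusted p = 0.0645), MV4-11 replicate 1 (0.0847) or MV4-11 replicate 2 (0.0735).

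NUPR1, a small nuclear stress protein, read 9.02 and 8.77 in MV4-11R, against 8.33 and 7.93 in MV4-11. It rose 1.70-fold (0.76, SE 0.17, adjusted p = 0.0348). The call was lost without MV4-11R replicate 1 (adjusted p = 0.116) or MV4-11 replicate 2 (0.109).

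**Figure D2:**
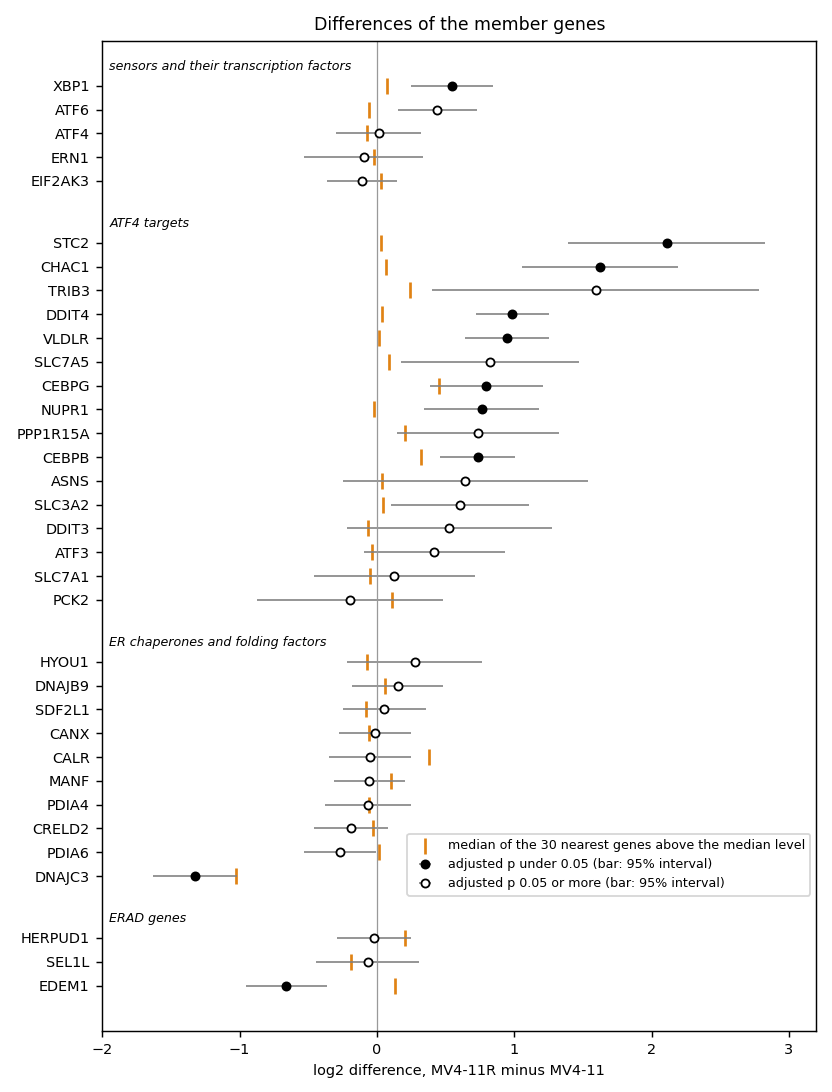
Log2 difference of each member, MV4-11R minus MV4-11, with its 95% interval (horizontal bar, from limma's moderated standard error). Filled points passed the test, and orange ticks give the median difference of the 30 nearest genes above the median level. Ticks stand away from 0 for DNAJC3 (-1.02), CEBPG (0.45), CALR (0.38) and CEBPB (0.32).

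Of the 9 ATF4 targets that did not pass, 5 were wholly above MV4-11 without passing. Over all genes the arrays of the lines did not overlap, in either direction, for 55.6%. TRIB3, a pseudokinase that restrains ATF4, read 11.32 and 10.46 in MV4-11R, against 10.01 and 8.59 in MV4-11. Its difference of 1.59 was nearly that of CHAC1, but the arrays of each line spread widely (SE 0.49, adjusted p = 0.0836). SLC7A5 and SLC3A2, the light and heavy chains of the large neutral amino acid transporter, differed by 0.83 (SE 0.27, adjusted p = 0.0961) and 0.61 (SE 0.21, adjusted p = 0.109). PPP1R15A, which directs the phosphatase that reverses eIF2 phosphorylation, differed by 0.74 (SE 0.24, adjusted p = 0.1004). ATF3, a stress factor of the AP-1 type, read 7.13 and 6.495 in MV4-11R, against 6.37 and 6.42 in MV4-11. The second resistant array was only just above the parent, and the difference was 0.42 (SE 0.21, adjusted p = 0.268). All ATF3 readings but that of the first resistant array were close to the background guide of 6.26.

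The other four overlapped between the lines. DDIT3, the pro-apoptotic factor CHOP, read 9.99 and 8.999 in MV4-11R, against 9.01 and 8.92 in MV4-11. As for ATF3, a single resistant array was high, and the difference was 0.53 (SE 0.30, 95% interval -0.22 to 1.27, adjusted p = 0.335). ASNS, the asparagine synthetase, read 10.54 and 9.90 in MV4-11R, against 10.09 and 9.06 in MV4-11 (difference 0.64, SE 0.36, adjusted p = 0.325). The arginine and lysine transporter SLC7A1 differed by 0.13 (SE 0.24, adjusted p = 0.810). PCK2, the mitochondrial phosphoenolpyruvate carboxykinase, was the one target with a negative difference (-0.20, SE 0.28, adjusted p = 0.731).

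The sizes of several differences depended on single arrays. A fit that leaves 1 array of a line takes that array to vary like the other line, so sizes alone are given here. MV4-11R replicate 2 was the lower of the resistant arrays for 13 of 16 targets. Without it the differences were 1.02 for DDIT3, 0.73 for ATF3, 0.88 for SLC3A2 and 1.11 for PPP1R15A. Without MV4-11R replicate 1 they were 0.03, 0.10, 0.33 and 0.37, in the same order. Without MV4-11 replicate 1 the differences were 2.30 for TRIB3, 1.17 for SLC7A5 and 1.16 for ASNS. Without MV4-11 replicate 2 they were 0.88, 0.48 and 0.13, in the same order. The median over the targets ran from 0.57 to 0.95 over the 4 fits that each left out 1 array.

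The ER chaperones and folding factors mostly had differences close to 0. Of the 10 genes 1 fell, while the other 9 missed the threshold. CALR and CANX, the lectin chaperones calreticulin and calnexin, differed by -0.05 (SE 0.12, 95% interval -0.35 to 0.25) and -0.01 (SE 0.11, 95% interval -0.28 to 0.25). CANX read 12.99 and 13.02 in MV4-11R, against 13.06 and 12.97 in MV4-11, and these arrays overlapped. For CALR the median of the neighbours on chromosome 19 was 0.38, and with that shift subtracted CALR was at -0.40 (adjusted p = 0.104).

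The disulfide isomerases PDIA4 and PDIA6 differed by -0.06 (SE 0.13) and -0.27 (SE 0.11, adjusted p = 0.163), and the arrays of PDIA6 did not overlap. HYOU1, which serves the ER chaperone BiP as a nucleotide exchange factor, differed by 0.27 (SE 0.20, adjusted p = 0.455). SDF2L1, MANF and CRELD2, small ER stress proteins, differed by 0.05, -0.06 and -0.19. DNAJB9, a BiP co-chaperone that restrains IRE1, differed by 0.15 (SE 0.13, adjusted p = 0.559). Intervals of these genes reached at most 0.76 above 0 (HYOU1) and 0.53 below it (PDIA6), so smaller changes than these are not shown to be absent.

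DNAJC3, a BiP co-chaperone also known as an inhibitor of eIF2 kinases, was the chaperone gene that fell. It read 7.83 and 8.07 in MV4-11R, against 9.30 and 9.24 in MV4-11. It fell 2.51-fold (log2 difference -1.33, SE 0.13, adjusted p = 0.00290), with the arrays of each line close together. The median difference of its 30 neighbours, on chromosome 13, was -1.02, and with that shift subtracted DNAJC3 was at -0.31 and did not pass (adjusted p = 0.179).

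Of the 3 ERAD genes EDEM1, a lectin-like protein that passes misfolded glycoproteins to degradation, fell. It read 9.85 and 9.99 in MV4-11R, against 10.66 and 10.49 in MV4-11. The fall was 1.58-fold (-0.66, SE 0.12, adjusted p = 0.0197), and its neighbours on chromosome 3 had a median of 0.13, in the other direction. The EDEM1 call was lost without MV4-11R replicate 1 (adjusted p = 0.0717) or MV4-11 replicate 1 (0.0868). HERPUD1 and SEL1L, parts of the ubiquitin ligase complex that removes ER proteins, differed by -0.02 (SE 0.11) and -0.07 (SE 0.15). Without MV4-11 replicate 1 the median of the 13 chaperone and ERAD genes was 0.01, so its sign turned.

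Within each line the replicates differed in the same direction for many ATF4 targets and for genes of amino acid supply. Replicate 1 was above replicate 2 in both lines for 10 of 16 ATF4 targets and 12 of 13 genes of amino acid synthesis and transport. It was so for 13 of 13 genes listed as aminoacyl-tRNA synthetases, which include the tRNA exporter XPOT, against 29.7% of all genes. The gap for TRIB3 was 0.86 in MV4-11R and 1.42 in MV4-11, and that for ASNS was 0.64 in MV4-11R and 1.03 in MV4-11. DDIT4 (-0.08 in both lines) and CEBPB (-0.14 in MV4-11R and -0.06 in MV4-11) were slightly lower on replicate 1. The ER chaperones were higher on replicate 1 in both lines for 4 of 10 genes, with 10 of 10 in MV4-11 and 4 of 10 in MV4-11R. For the ATF4 targets these counts were 11 of 16 in MV4-11 and 13 of 16 in MV4-11R. Over all 18417 genes they were 8360 in MV4-11 and 10262 in MV4-11R. The labels give the replicate number no meaning beyond its name, and a cause of this spread was not tested.

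**Figure D3:**
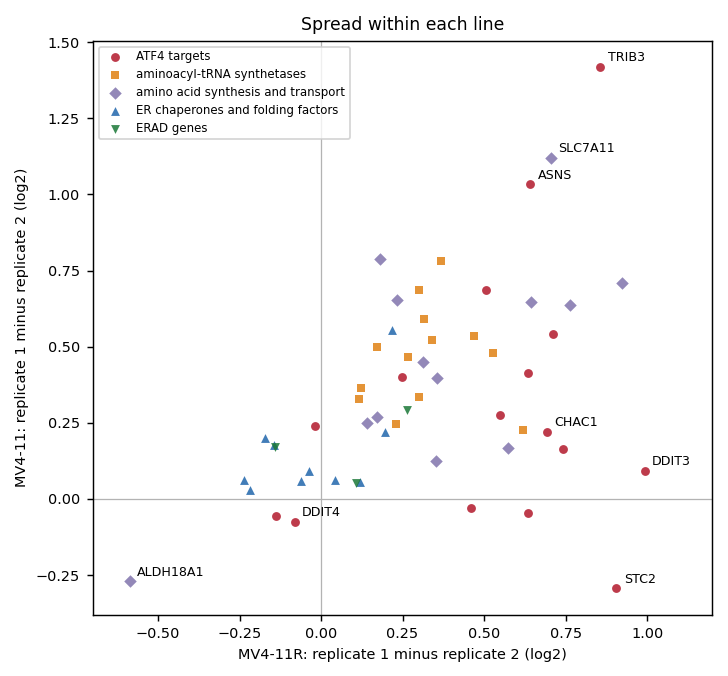
Replicate 1 minus replicate 2 of each gene in MV4-11R (horizontal axis, log2 units) and in MV4-11 (vertical axis, log2 units), for 5 lists. All aminoacyl-tRNA synthetases lie in the upper right. Of the genes in the 5 lists, TRIB3, ASNS and SLC7A11 lie farthest out. The 10 ER chaperones lie on both sides of 0 on the horizontal axis. On the vertical axis all 10 lie above 0, with HYOU1 the highest at 0.56.

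Mean levels of the 16 ATF4 targets were 10.22 and 9.70 in MV4-11R, against 9.29 and 8.98 in MV4-11. Genes that respond to handling of cells were higher in MV4-11R too. Of 9 such genes 6 rose (FOSB, JUN, JUNB, IER2, IER3 and DUSP1) and 0 fell (0 lower also at an unadjusted p under 0.05), while FOS, EGR1 and ZFP36 did not pass. The mean level of the 9 genes was 9.22 and 9.39 in MV4-11R and 8.27 and 8.65 in MV4-11. On average these genes were lower on replicate 1 in both lines, with 2 of 9 higher on it in MV4-11R and 0 of 9 in MV4-11. Of 62 ribosomal protein genes, taken as a sign of RNA quality, 1 rose and 1 fell. A positive difference was seen for 50 of them, and their median was 0.12, against 0.01 over all genes. At an unadjusted p under 0.05 limma gave 12 higher and 1 lower. Their means were 11.43 and 11.54 in MV4-11R and 11.33 and 11.41 in MV4-11. The part of either list in the differences of the members was not tested.

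Other genes of the pathway came from 5 lists that hold none of the members, to be read against the 7.92% of all genes that rose and the 7.13% that fell. For counts at an unadjusted p under 0.05 in limma, the numbers over all 18417 genes were 2872 higher and 2398 lower. With all probe sets tested, 9 of the 11 genes named from these lists missed the threshold (adjusted p = 0.0503 to 0.124), the exceptions being ALDH18A1 and SSR1. Of 13 measured genes of amino acid synthesis and transport 1 rose and 0 fell (limma, with 3 higher and 0 lower at an unadjusted p under 0.05), and the median was 0.22. The gene that rose was ALDH18A1, which starts proline synthesis. It read 9.46 and 10.05 in MV4-11R, against 8.02 and 8.29 in MV4-11 (3.04-fold, adjusted p = 0.00761). Of 13 genes listed as aminoacyl-tRNA synthetases, with the exporter XPOT among them, 1 rose and 0 fell (6 higher and 0 lower at an unadjusted p under 0.05). In this list 12 had a positive difference and the median was 0.42. The asparaginyl-tRNA synthetase NARS1 rose 1.82-fold (0.87, SE 0.22, adjusted p = 0.0473), beside a median of 0.55 for its neighbours on chromosome 18. Without MV4-11R replicate 1 the NARS1 difference was 0.56 (adjusted p = 0.0972), and its call was also lost without MV4-11 replicate 1 (0.0717) or MV4-11 replicate 2 (0.136), and with the neighbours' shift subtracted (0.34, adjusted p = 0.303).

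Of 10 other ATF4-linked genes 1 rose and 1 fell (limma, with 2 higher and 1 lower at an unadjusted p under 0.05). The growth arrest gene GADD45A rose 2.10-fold (adjusted p = 0.0131). KLHL24, an adaptor of a ubiquitin ligase, fell 3.01-fold (adjusted p = 0.0300). GADD45A averaged under the background guide in MV4-11, with 7.38 and 6.91 in MV4-11R and 6.04 and 6.11 in MV4-11, so its fold is not exact. KLHL24 read 7.87 and 8.82 in MV4-11R, against 9.63 and 10.24 in MV4-11, and its call was lost without MV4-11R replicate 1 (adjusted p = 0.0520) or MV4-11 replicate 2 (0.0755).

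The list of other genes of ER folding, ERAD and ER entry had 32 measured members, of which 3 rose and 1 fell. At an unadjusted p under 0.05 limma gave 6 higher and 1 lower. Of the 32 genes, 21 had a positive difference, and the median of the list was 0.06. The disulfide reductase DNAJC10 rose 2.09-fold (adjusted p = 0.0372), the translocon-associated subunit SSR1 1.76-fold (0.0116) and the ERAD selenoprotein SELENOS 1.58-fold (0.0169). Another translocon-associated subunit, SSR3, fell 1.48-fold (0.0320). The calls on DNAJC10 (adjusted p = 0.119 and 0.0747) and SELENOS (0.0617 and 0.0746) were lost without MV4-11R replicate 1 or MV4-11 replicate 2, and that on SSR3 without MV4-11R replicate 1 (0.104), MV4-11R replicate 2 (0.0662) or MV4-11 replicate 1 (0.144). With the neighbours' shift subtracted, DNAJC10 (0.0748) and SSR3 (0.131) did not pass.

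Of 15 further sensors and eIF2 control genes 3 rose and 0 fell (5 higher and 0 lower at an unadjusted p under 0.05). These were EIF2B4 (1.596-fold, adjusted p = 0.0150) and EIF2B3 (1.42-fold, 0.0287), subunits of the exchange factor that recharges eIF2, and EIF2S1 (1.47-fold, 0.0395), the eIF2 subunit that stress kinases phosphorylate. The call on EIF2B4 was lost without MV4-11 replicate 1 (adjusted p = 0.0678), and those on EIF2B3 (0.0624 to 0.110) and EIF2S1 (0.0534 to 0.163) without any 1 of the 4 arrays. With the neighbours' shift subtracted, EIF2B3 (0.0705) and EIF2S1 (0.0561) did not pass, nor did EIF2S1 with median centring (0.0538).

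**Figure D4:**
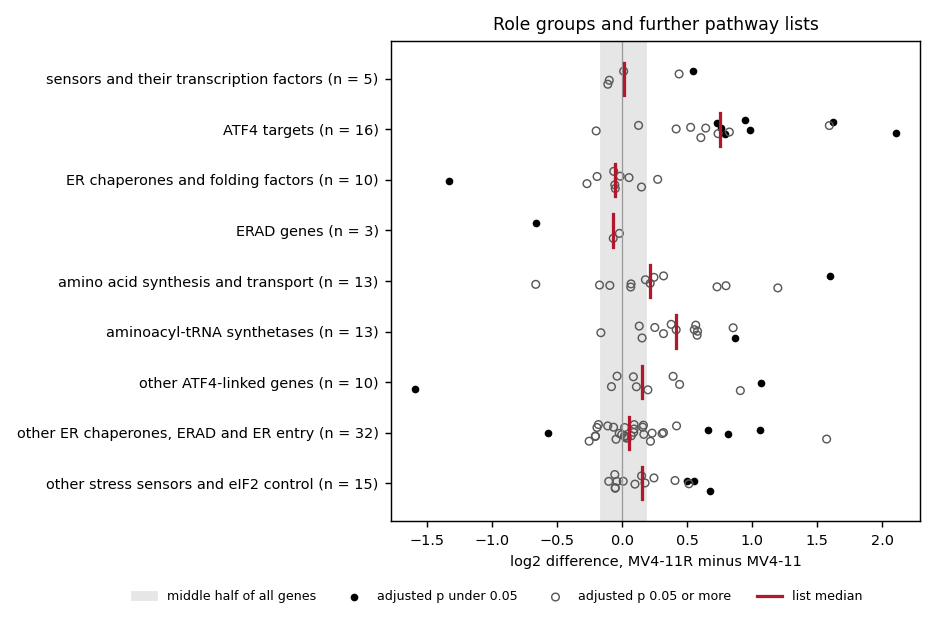
Log2 difference, MV4-11R minus MV4-11, of each gene in the 4 role groups and the 5 further lists (rows), with list medians in red and the middle 50% of all genes shaded. Filled points passed the test. The ATF4 targets have a median of 0.75 and the list of aminoacyl-tRNA synthetases, which includes XPOT, 0.42, while chaperone, ERAD and ER entry lists centre near 0.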

How the data were processed

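The deposited values are log2 signals per probe set from 4 Affymetrix arrays of biotin-labelled total RNA, made by the authors. Per the submitters' processing notes this was RMA in the Affymetrix Expression Console (background correction, quantile normalization, probe summary), with the version not given in the sources used here. The log2 scale was read from the values. RMA compresses differences near background.

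Of 33297 probe sets, 19460 had 1 gene in the platform annotation, 1754 had several and 12083 were not listed, and the last 2 kinds were left out. Symbols were updated through RefSeq (GRCh38.p14, 31 IDs unmatched). The brightest probe set per gene gave 18417 genes with no filter. Differences were tested with limma 3.58.1 in R 4.3.3 (lmFit and eBayes, two-sided, Benjamini-Hochberg over all genes, 2 residual degrees of freedom), which was tested on simulated data. No detection calls were used, and with 4 arrays precision is limited by their number. The members, lists and tests were chosen with earlier results of these data known. All members are named, and from each further list the 3 widest rises and the 3 widest falls that passed, where there were as many. Alternatives were other scalings, filters, probe-set rules, a variance trend, a replicate block, removal of regional shifts and each array left out.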

Additional observations from a re-analysis of the deposited data

How the results depend on the processing

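Over the 8 alternatives that kept all arrays, no ATF4 target changed sign, and the median of the targets stayed between 0.62 and 0.75. Alternatives for the pathway genes and for the medians were chosen after seeing the data. The cause of the changes below was not tested, except that testing all probe sets adjusts over more tests. Genes called numbered 1505 with all probe sets tested, 3642 with the replicate block and 1588 to 2479 with 1 array left out, against 2772. Members called numbered 6 with all probe sets tested, 16 with the replicate block and 6 to 14 with 1 array left out, against 10. ATF4 targets that rose numbered 12 with the replicate block and 5 to 11 with 1 array left out, against 7. Sensors and factors that rose numbered 2 with genes above the 25th percentile of level, with the variance trend, with the replicate block and with regional shifts removed, as ATF6 passed as well, 0 with all probe sets tested and 0 to 1 with 1 array left out, against 1. Chaperones that fell numbered 0 with regional shifts removed, and ERAD genes that fell numbered 0 with all probe sets tested and 0 to 1 with 1 array left out, against 1 for each. Pathway genes that rose numbered 14 above the 25th percentile, 2 with all probe sets tested, 21 with the replicate block and 4 to 12 with 1 array left out, against 9. Those that fell numbered 0 with all probe sets tested, 1 with regional shifts removed and 0 to 1 with 1 array left out, against 2.

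The replicate numbers are not described as shared days or batches, and with 2 pairs of same-numbered arrays their meaning was not settled. The deviations of same-numbered arrays correlated at 0.26 over genes. With the block, TRIB3, ASNS, SLC3A2, SLC7A5, PPP1R15A and ATF6 passed and no member's call was lost.

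Signs turned only for differences that did not pass. ATF4 was at -0.022 with median centring and SEL1L at 0.078 with regional shifts removed. With 1 array left out, a lone array being taken to vary like the other line, the ranges were -0.34 to 0.15 for ERN1, -0.11 to 0.14 for ATF4, -0.19 to 0.44 for SLC7A1, -0.55 to 0.16 for PCK2, -0.034 to 0.14 for SDF2L1, -0.16 to 0.057 for CALR, -0.060 to 0.033 for CANX, -0.16 to 0.036 for PDIA4, -0.0037 to 0.55 for HYOU1, -0.074 to 0.034 for HERPUD1 and -0.21 to 0.079 for SEL1L.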
